A study of Homo sapiens with 16 samples.

Results

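The 7 long noncoding RNAs MALAT1, NEAT1, TUG1, OIP5-AS1, DANCR, PVT1 and H19 were followed across 16 RNA-seq libraries of human cell lines in which SAM68 or the long noncoding RNA NORAD had been perturbed. They were chosen by name, as the rows of the gene tables whose NCBI gene number maps to these symbols. Each name matched 1 row, so there were 7 rows of 27434. U2OS (osteosarcoma) cells carried either pooled siRNAs that target SAM68 or the non-targeting control, or else a plasmid for mouse SAM68 (pcDNA3-HA-SAM68) or its control plasmid (pcDNA3.1(+)). HCT116 (colorectal carcinoma) cells, either SAM68 knockout or wild type, carried NORAD siRNA or control siRNA. The siRNA dose was 50 nM, the plasmid dose was 100 ng per 20000 cells, and RNA was taken after 48 h. Each of the 8 groups had 2 libraries of poly(A) RNA, with 11349545 to 27387412 expected counts per library. The plasmid carries the mouse gene while reads were counted on human transcripts, and the labels do not say whether the knockout line is 1 clone. Separate cultures for the 2 libraries of each group are not stated either, so every p-value reflects library-to-library spread alone, which may be technical. In bulk RNA, fewer cells with an RNA and less of it per cell cannot be told apart.

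Long noncoding RNAs act as RNA and not through a protein. MALAT1 and NEAT1 stay in the nucleus: MALAT1 gathers in nuclear speckles with splicing factors, and the long isoform of NEAT1 builds paraspeckles. RNase P cleavage makes the ends of MALAT1 and long NEAT1, which fold into a triple helix and carry no poly(A) tail. A poly(A)-selected library can under-represent such ends. TUG1 and OIP5-AS1 are broadly expressed, and OIP5-AS1 (Cyrano) is known for pairing with the microRNA miR-7. DANCR is a short transcript that hosts small nucleolar RNAs, PVT1 lies beside MYC, and H19 is an imprinted RNA that hosts miR-675. NORAD, the subject of the study, is an abundant long noncoding RNA with many repeats, and SAM68 (gene KHDRBS1) is an RNA-binding protein of the nucleus.

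The sequences below show which of the RNAs hold the letters that the study turns on. The Pumilio motif TGTANATA, where N is any base, was counted on the sense strand of the GENCODE release 29 transcripts. NORAD had 15 matches in 5339 bases. Of the 7 RNAs, only the long NEAT1 isoform, TUG1 and OIP5-AS1 had any: 6 in the 22743 bases of long NEAT1, 2 in each of the 2 TUG1 transcripts searched and 1 in the 8829 bases of OIP5-AS1. MALAT1, the short NEAT1 isoform of 3524 bases, DANCR, PVT1 and H19 had 0. Among 40142 annotated transcripts of at least 500 bases, 18.9% held at least 1 match. Per kilobase, long NEAT1 had 0.264, TUG1 had 0.268 or 0.282 and OIP5-AS1 had 0.113, against 2.81 in NORAD and a mean of 0.0876 over those transcripts. The matches, in capitals, with the 11 bases on each side, are given for 3 of the 6 in NEAT1, for those in TUG1 and OIP5-AS1 and, for comparison, for the second in NORAD.
NEAT1, bases 3664 to 3671: ctgttacgtcaTGTACATAattactaatca
NEAT1, bases 8515 to 8522: cttttggctatTGTAAATAatggtgctatg
NEAT1, bases 13990 to 13997: gcaatttttacTGTAGATAaggctataccg
TUG1, bases 5012 to 5019: actagcctcctTGTATATAcaactattatt
TUG1, bases 5223 to 5230: aaaatatacatTGTATATAagaattggtga
OIP5-AS1, bases 8778 to 8785: ctctgcacctgTGTATATAtatattttagc
NORAD, bases 1140 to 1147: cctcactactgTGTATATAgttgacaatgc
Positions count from the 5′ end of each transcript (for TUG1, that of 7469 bases). The other 3 NEAT1 matches lie in runs of alternating bases, and the OIP5-AS1 match runs into a shorter one. The TUG1, OIP5-AS1 and NORAD matches shown share the letters TGTATATA, and the 3 NEAT1 matches shown each have another base at N. This depends on the matches shown: the other 3 in NEAT1 are TGTATATA, and NORAD also holds TGTAAATA and TGTACATA. A match is a description of the letters and not a site that was measured here.

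TTTAAA, a core of the U- and A-rich sequences that SAM68 is known to bind, was counted in the same transcripts. MALAT1 had 24 matches, or 2.76 per kilobase, and 2.62% of the 40142 transcripts had as high a density. Short NEAT1 had 1.99, OIP5-AS1 had 1.81, long NEAT1 had 1.14 and the TUG1 transcripts had 1.07 and 0.847 per kilobase, against a mean of 0.642 over those transcripts. NORAD had 8 matches. DANCR, PVT1 and H19 had 0. The 4 RNAs with matches are those of lower GC content, from 38.4% in OIP5-AS1 to 46.2% in NEAT1, while DANCR has 53.7%, PVT1 52.2% and H19 60.1%.

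**Figure D1:**
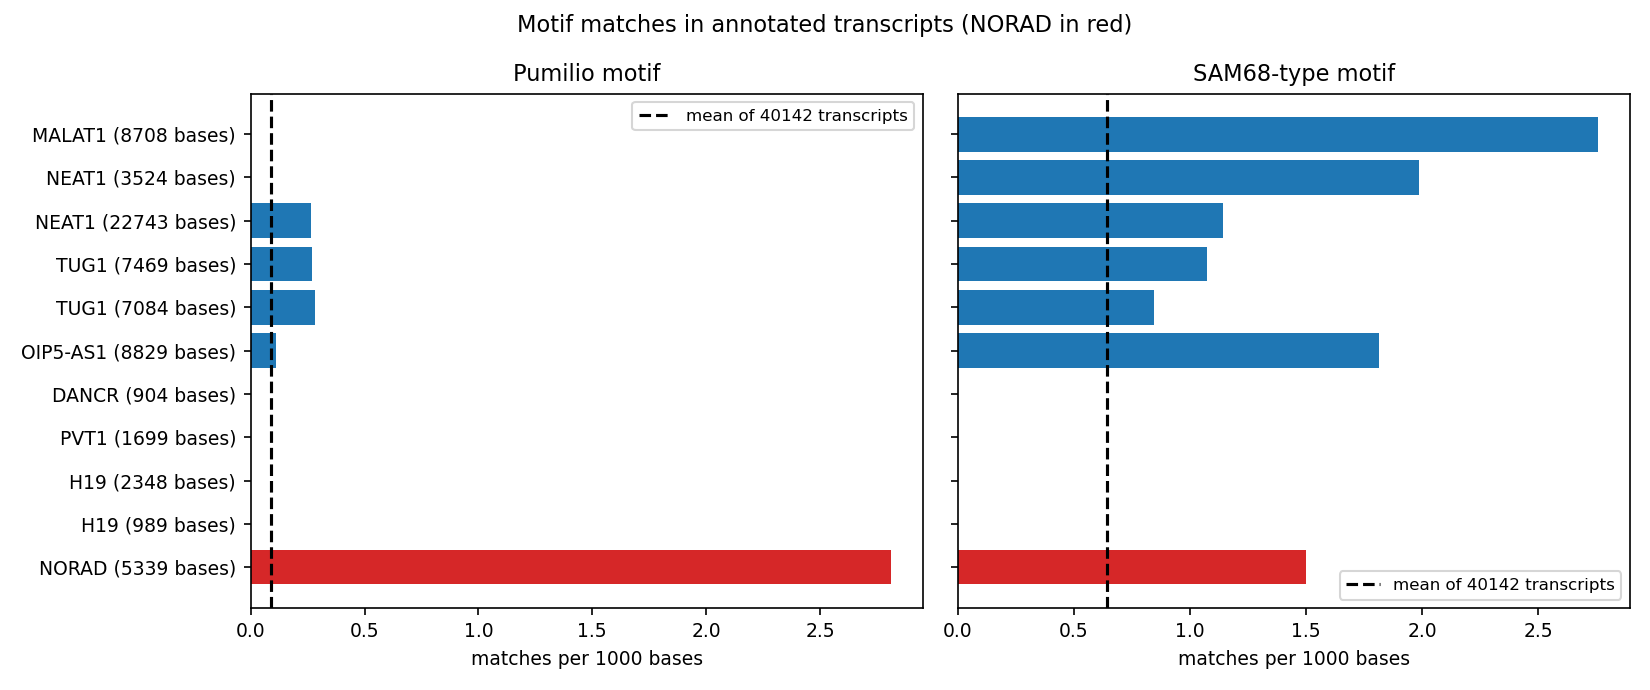
Matches per kilobase of the Pumilio motif (left) and of the SAM68-type motif (right) in annotated transcripts, 1 bar per transcript, with the mean of 40142 transcripts as a dashed line. NORAD stands at 2.81 on the left, and none of the 7 RNAs exceeds 0.282; on the right MALAT1 is highest at 2.76.

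OIP5-AS1 and H19 are tied to named microRNAs, so these are shown with the seed, bases 2 to 8, in capitals. The OIP5-AS1 transcript held 3 matches to the miR-7-5p seed, at bases 724 to 730, 2887 to 2893 and 8167 to 8173. The match at 2887 is shown with the bases that face the rest of the microRNA. The microRNA sequences are from RefSeq (GRCh38.p14), and the OIP5-AS1 bases are from GENCODE release 29.
miR-7-5p: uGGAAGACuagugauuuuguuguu
OIP5-AS1, seed match at bases 2887 to 2893: caacaaaatcaccaatGTCTTCCa
miR-675-5p: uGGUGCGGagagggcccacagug
miR-675-3p: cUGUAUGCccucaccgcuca
The deposited row for OIP5-AS1 is a transcript of 1894 bases, shorter than the one searched, so the reads counted came from part of the RNA at most. The H19 row joins the gene of miR-675, and the NEAT1 row joins that of MIR612, so reads from host and microRNA cannot be told apart. The RefSeq table lists TUG1 as protein coding, because of a short open reading frame, and the other 6 as long noncoding RNAs. MALAT1, NEAT1 and H19 lie on chromosome 11, TUG1 on 22, OIP5-AS1 on 15, DANCR on 4 and PVT1 on 8.

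Libraries matched their labels at the targeted genes. KHDRBS1 averaged 64.6 ± 22.7 CPM (counts scaled to library size, SD, n = 2) under SAM68 siRNA and 247 ± 2.80 CPM under control siRNA, a log2 change of -1.94 that did not pass the adjusted threshold (edgeR adjusted p = 0.185). Under the SAM68 plasmid it averaged 562 ± 44.3 CPM, against 248 ± 40.3 CPM under the control plasmid. This log2 change of 1.18 did not pass the adjusted threshold in edgeR either. It averaged 35.1 ± 4.90 CPM in knockout and 229 ± 17.1 CPM in wild-type HCT116 under control siRNA. NORAD averaged 48.8 ± 1.99 CPM under NORAD siRNA and 241 ± 12.1 CPM under control siRNA in wild-type HCT116, and in the knockout 66.0 ± 16.1 CPM under NORAD siRNA and 238 ± 19.1 CPM under control siRNA. Of 17 mesenchymal and bone markers, 14 averaged at least 1 TPM (a level scaled to transcript length and library size) in U2OS and 6 in HCT116, with summed levels of 3031 to 5140 TPM in U2OS and 10.2 to 16.2 TPM in HCT116. Of 17 colon epithelial markers, 12 did so in HCT116, with summed levels of 4507 to 5717 TPM, but CDX1, VIL1 and CDH17 stayed below 0.1 TPM there. In U2OS 5 of these averaged at least 1 TPM, with sums of 931 to 1301 TPM. TWIST1 was below 0.1 TPM in U2OS. Blood, endothelial and liver markers summed to 2.06 to 6.54 TPM in U2OS and 1.35 to 4.75 TPM in HCT116. SAM68 siRNA replicate 1 in U2OS stands apart from its group in MALAT1 and NEAT1. The SAM68 siRNA differences of these RNAs and the U2OS order of levels are given with and without it. Other U2OS values, such as summed levels and similar profiles, include it unless stated.

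In levels per length, DANCR was the highest of the 7 in both lines and H19 the lowest. DANCR had 461 to 643 TPM in the 8 U2OS libraries, with a median of 525, and 147 to 187 TPM in the 8 HCT116 libraries, with a median of 159. H19 had 0.55 to 2.18 TPM in U2OS and 1.84 to 4.08 TPM in HCT116, on at most 97 expected counts per library. By mean TPM, DANCR ranked 244 of the 27434 rows in U2OS and 907 in HCT116, while H19 ranked 13228 and 10843, so H19 is not abundant in either line. The summed level of the 7 RNAs was 769 to 1220 TPM in U2OS and 310 to 369 TPM in HCT116.

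Between these ends the order depended on the line. In U2OS the medians were 115 TPM for NEAT1, 51.7 for TUG1, 42.3 for OIP5-AS1, 34.2 for MALAT1 and 23.7 for PVT1. Of neighbours in this order, only DANCR and NEAT1, and PVT1 and H19, had ranges over the 8 libraries that did not overlap. The range of NEAT1 also lay above those of OIP5-AS1 and PVT1, and that of OIP5-AS1 above that of PVT1. Within each U2OS library NEAT1 was second only to DANCR, while the ranges of TUG1, OIP5-AS1 and MALAT1 overlapped. In HCT116 the medians were 56.2 TPM for NEAT1, 53.0 for OIP5-AS1, 28.0 for PVT1, 22.2 for TUG1 and 7.46 for MALAT1. There, 3 of 6 neighbouring pairs did not overlap: DANCR and NEAT1, OIP5-AS1 and PVT1, and MALAT1 and H19. With FPKM in place of TPM, TUG1 and MALAT1 in HCT116 did not overlap either. Without SAM68 siRNA replicate 1 the U2OS order was the same, with the highest MALAT1 level at 80.6 in place of 151 TPM. Levels of MALAT1 and NEAT1 in poly(A) RNA may understate the RNA present, and this was not tested.

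**Figure D2:**
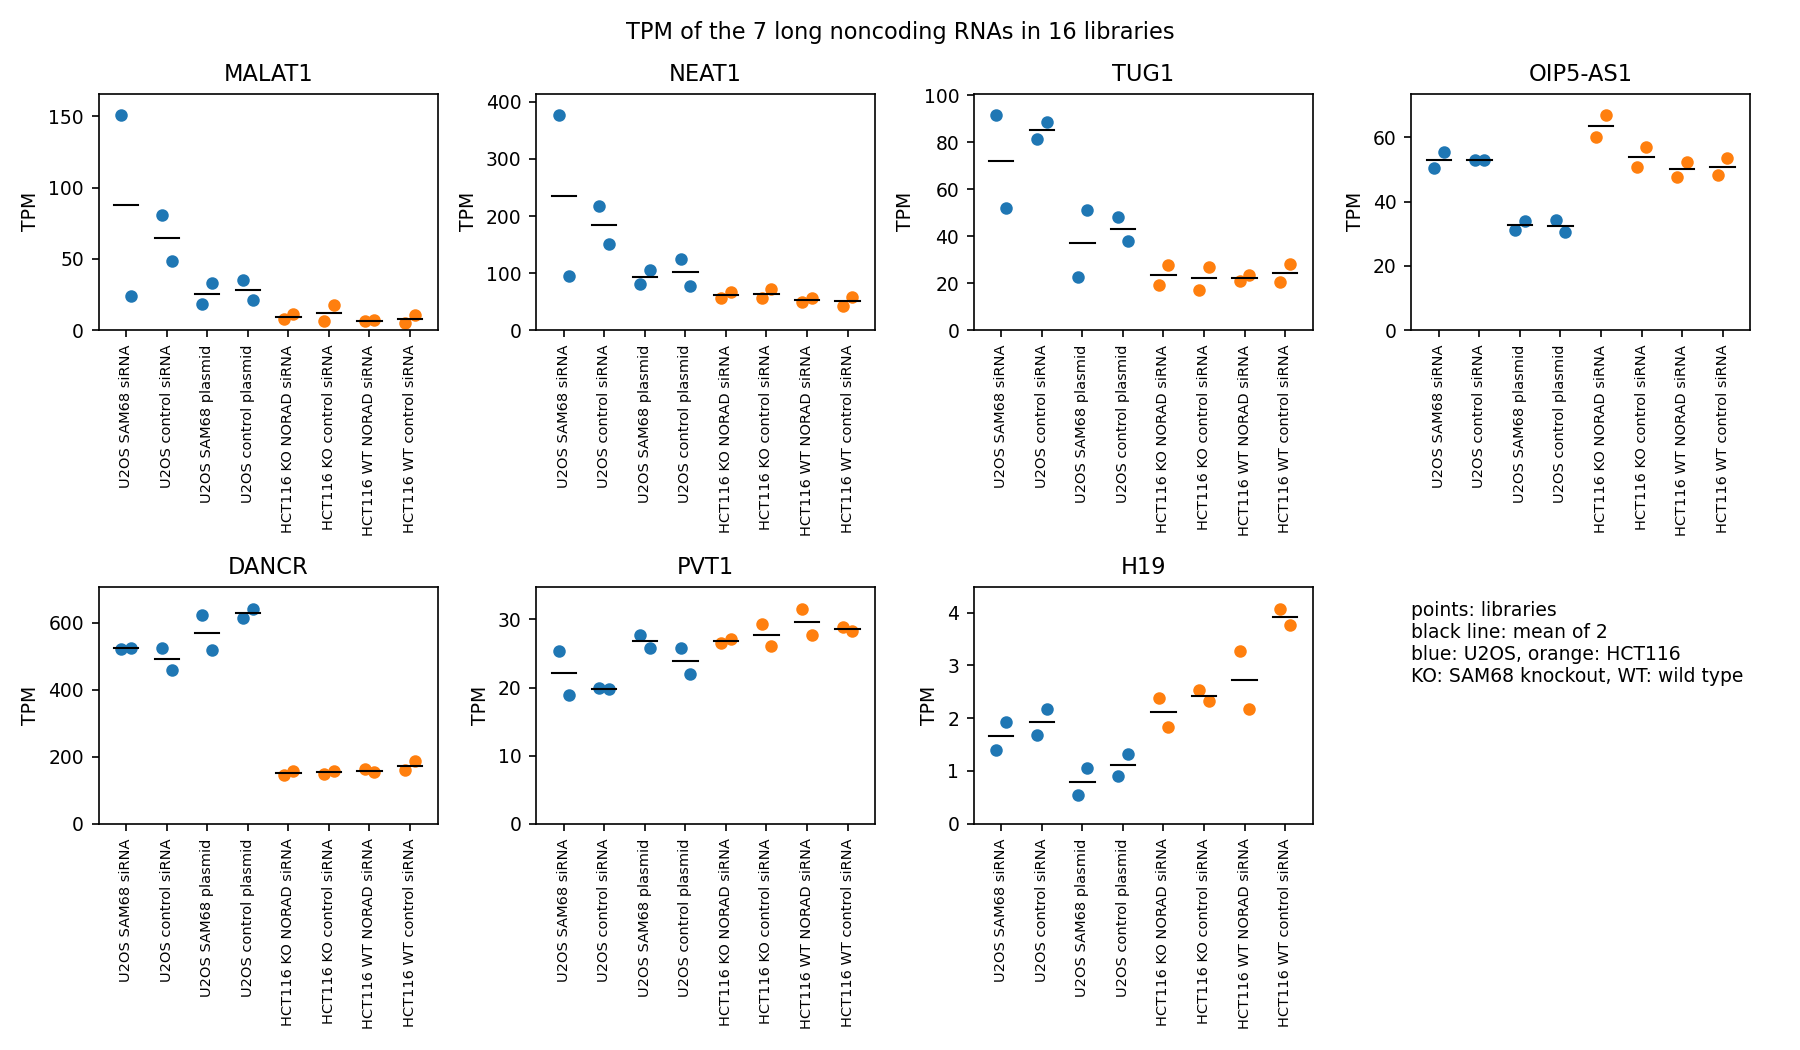
TPM of each of the 7 RNAs in each library (points), with the mean of the 2 libraries of a group (black line) and a scale of its own per RNA starting at 0. The 2 SAM68 siRNA libraries of U2OS lie far apart for MALAT1 (151 and 24.1) and NEAT1 (377 and 94.8), and DANCR is higher in every U2OS library than in every HCT116 library.

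Under control siRNA, MALAT1, NEAT1, TUG1 and DANCR were higher in U2OS than in wild-type HCT116, and PVT1 and H19 were lower. In this comparison 6 of the 7 passed the threshold (edgeR quasi-likelihood test, adjusted p below 0.05 over 16444 genes in the fit of all 16 libraries). Of all genes tested, 65.4% passed, so the count by itself does not set the 7 apart. Of the 6, 4 were higher. Among all genes that passed, 54.5% were higher, and genes that passed as higher made up 35.6% of all genes tested. The median log2 difference of all 7 was 1.18, against 0.10 for all tested genes, which was 0.15 with RLE factors and -0.01 with a GC correction. The groups did not overlap for any of the 7, and this was so for 85.1% of all genes. The line and the experiment it was run in cannot be told apart.

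MALAT1, the speckle RNA, had 333 and 204 CPM in U2OS, against 27.5 and 54.0 CPM in HCT116, in the fit of both lines. This was a 6.60-fold higher level in U2OS, with a 95% interval of 2.57 to 16.9 (log2 2.72 ± 0.63 SE, adjusted p from edgeR = 0.00171). NEAT1, the paraspeckle RNA, had 394 and 265 CPM in U2OS, against 101 and 129 CPM in HCT116. Its log2 difference was 1.51 ± 0.43 with an edgeR adjusted p of 0.00654. That call was lost without HCT116 control replicate 1 (adjusted p = 0.0581 in edgeR). Both genes share their neighbours on chromosome 11, and both were higher in each U2OS library than in each HCT116 library.

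TUG1 had 289 and 317 CPM in U2OS, against 97.5 and 127 CPM in HCT116, which is 2.71-fold higher in U2OS (log2 1.44 ± 0.27). DANCR had 175 and 152 CPM in U2OS, against 69.9 and 74.9 CPM in HCT116 (log2 1.18 ± 0.18). OIP5-AS1, in contrast, had 44.1 and 44.3 CPM in U2OS, against 53.3 and 55.2 CPM in HCT116. Its groups were apart, but the difference of -0.30 ± 0.15 did not pass (edgeR adjusted p = 0.0899), with a 95% interval of -0.61 to 0.02.

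PVT1 had 17.0 and 16.9 CPM in U2OS, against 32.9 and 30.0 CPM in HCT116, and was 0.538 times as high in U2OS (log2 -0.89 ± 0.19). This holds for the control siRNA libraries. In the same fit PVT1 had 26.9 and 23.2 CPM under the U2OS control plasmid and 35.7 and 26.1 CPM under the SAM68 plasmid. Over all libraries, PVT1 levels in U2OS and HCT116 thus overlapped. Its neighbour MYC, the transcription factor, was also lower in U2OS, at 108 CPM against 404 CPM in HCT116 (log2 -1.90 ± 0.14, edgeR adjusted p = 3.01e-08). CYRIB, on the other side of PVT1, had a log2 difference of -0.16 ± 0.16. H19 had 1.37 and 2.30 CPM in U2OS, against 4.67 and 3.59 CPM in HCT116 (log2 -1.16 ± 0.35, edgeR adjusted p = 0.00945). That call was lost without U2OS control siRNA replicate 1 (adjusted p = 0.114) and without HCT116 control replicate 1 (0.0799, both edgeR). H19's imprinted neighbour IGF2, a growth factor gene counted in 1 row with INS, went the other way, with 17.9 CPM in U2OS and 8.25 CPM in HCT116.

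SAM68 siRNA in U2OS gave no call among the 7. Only 0.00639% of all tested genes, 1 of 15658, passed in that comparison (edgeR, adjusted p below 0.05), and 166 genes had an unadjusted p below 0.05, none of them among the 7. DESeq2 called 7 genes and none of these RNAs. The largest log2 differences belonged to MALAT1 and NEAT1, and both rest on 1 library. MALAT1 had 645 and 111 CPM under SAM68 siRNA, against 355 and 219 CPM under control siRNA. The 2 treated libraries lie above and below both controls, so the log2 difference of 0.40 ± 0.63 has a 95% interval of -1.02 to 1.81. Without SAM68 siRNA replicate 1 it was -1.28, and without replicate 2 it was 1.17. NEAT1 had 777 and 186 CPM under SAM68 siRNA, against 420 and 285 CPM under control siRNA, a log2 difference of 0.45 ± 0.52. It was -0.84 without SAM68 siRNA replicate 1 and 1.14 without replicate 2.

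The gap between the 2 SAM68 siRNA libraries was 5.79-fold for MALAT1 and 4.19-fold for NEAT1, both higher in replicate 1. Among the 15658 tested genes, 0.485% had a larger gap than MALAT1 and 1.13% a larger one than NEAT1, and the median gap was 0.39 on the log2 scale. Replicate 1 also had the lowest depth of all libraries, at 11349545 expected counts. Across genes, the difference between these replicates (replicate 2 minus 1) went with GC content of the transcript, at a Spearman rho of 0.61 over 15392 genes, which are not independent. MALAT1 is GC-poor, with 12.6% of tested genes lower. OIP5-AS1 is more so, with 6.1% lower, but its gap was 1.19-fold and it was higher in replicate 2. TUG1, with 19.5% lower, had a 1.62-fold gap and was higher in replicate 1. NEAT1 is nearer the middle, with 37.5% lower. DANCR (63.7% lower) and H19 (84.7%) were higher in replicate 2, and PVT1 (59.0%) was higher in replicate 1. What part depth and GC content had in these gaps was not tested.

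The isoforms of NEAT1 differed in the same library. The length of the NEAT1 row, which is the mean over its isoforms weighted by their estimated abundance, was 4311 bases in SAM68 siRNA replicate 1 and 3810 bases in replicate 2, against 3924 and 3805 bases under control siRNA. In the other 12 libraries it was 3791 to 3870 bases. Both libraries with the greatest length were also those with the highest NEAT1 level. With an offset for length, the NEAT1 difference under SAM68 siRNA was 0.33.

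The remaining 5 RNAs had differences within their error. TUG1 had 336 and 207 CPM under SAM68 siRNA, against 308 and 341 CPM under control siRNA (log2 -0.26 ± 0.30). OIP5-AS1 had 43.2 and 51.3 CPM under SAM68 siRNA, against 47.1 and 47.6 CPM under control siRNA. DANCR had 179 and 191 CPM under SAM68 siRNA, against 187 and 163 CPM under control siRNA. For OIP5-AS1 and DANCR the 95% intervals of the log2 difference were -0.43 to 0.42 and -0.42 to 0.57. PVT1 and H19 had log2 differences of 0.15 ± 0.22 and -0.36 ± 0.44. No RNA of the 7 had groups that did not overlap, which 18.9% of all tested genes had.

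The SAM68 plasmid gave no call among the 7 either, where 0.00639% of tested genes passed and 86 genes had an unadjusted p below 0.05, none of them among the 7 (edgeR). DESeq2 called 4 genes, none of them among the 7. PVT1 had the largest log2 difference, with 36.2 and 26.3 CPM under the SAM68 plasmid, against 26.8 and 23.6 CPM under the control plasmid (log2 0.31 ± 0.22). DANCR had 318 and 203 CPM under the SAM68 plasmid, against 249 and 265 CPM under the control plasmid. TUG1 had 124 and 217 CPM under the SAM68 plasmid, against 208 and 169 CPM under the control plasmid, and the 2 SAM68 plasmid libraries lay outside both controls on opposite sides for DANCR and TUG1. MALAT1 had 115 and 162 CPM under the SAM68 plasmid, against 178 and 109 CPM under the control plasmid. NEAT1 had 215 and 218 CPM under the SAM68 plasmid, against 265 and 169 CPM under the control plasmid. For both nuclear RNAs the SAM68 plasmid libraries fell between the controls. OIP5-AS1 had 39.8 and 33.5 CPM under the SAM68 plasmid, against 34.7 and 31.7 CPM under the control plasmid. H19 had 0.889 and 1.31 CPM under the SAM68 plasmid, against 0.922 and 1.75 CPM under the control plasmid. The groups overlapped for all 7, and 18% of all tested genes had groups that did not. For MALAT1 and NEAT1 the 95% intervals, -1.47 to 1.37 and -1.18 to 1.18, include changes of 2-fold in either direction.

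The control groups of U2OS, which differ in what was transfected, were compared after the levels had been seen. None of the 7 passed between control siRNA and control plasmid, where 1.3% of tested genes passed (edgeR, 204 of 15658, of which 162, or 1.03%, were higher). The split depended on the scaling: 125 of 184 calls were higher with RLE factors, and 849 of 1669 with a GC correction. The calls numbered 54 without control siRNA replicate 1, 1 without replicate 2, 3 without control plasmid replicate 1 and 4 without replicate 2. With no filter on low counts, MALAT1 (edgeR adjusted p = 0.0316) and TUG1 (0.0268) passed. Groups did not overlap for 6 of the 7, and this was so for 66% of all genes, so the 7 stand near the background. MALAT1 had 355 and 219 CPM under control siRNA, against 178 and 109 CPM under control plasmid, with a 95% interval of -0.43 to 2.43 on the log2 scale. OIP5-AS1 had 47.1 and 47.6 CPM under control siRNA, against 34.7 and 31.7 CPM under control plasmid (log2 0.51 ± 0.19). DANCR had 187 and 163 CPM under control siRNA, against 249 and 265 CPM under control plasmid (log2 -0.55 ± 0.22). MYC, beside PVT1, was lower under control siRNA, at 116 CPM, against 267 CPM under control plasmid (log2 -1.21 ± 0.17, edgeR adjusted p = 0.0172), while PVT1 had a log2 difference of -0.47 ± 0.22 (adjusted p = 0.241 in edgeR).

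NORAD siRNA called none of the 7 in wild-type HCT116, where 0.00727% of tested genes, 1 of 13764, passed. A total of 181 genes had an unadjusted p below 0.05 in edgeR, and DESeq2 called 5 genes but none of the 7. H19 had the largest log2 difference: 2.82 and 2.06 CPM under NORAD siRNA, against 4.52 and 3.46 CPM under control siRNA. Its groups did not overlap, as for 27% of all genes, and its log2 difference was -0.70 ± 0.27 (unadjusted p = 0.0279 and adjusted p = 0.999 in edgeR). It rests on 72 and 40 expected counts under NORAD siRNA, against 97 and 57 under control siRNA. The other 6 RNAs had log2 differences between -0.14 and 0.09. OIP5-AS1 had 51.6 and 53.9 CPM under NORAD siRNA, against 51.6 and 53.2 CPM under control siRNA, with an interval of -0.21 to 0.23. MALAT1 had 33.8 and 37.2 CPM under NORAD siRNA, against 26.6 and 52.0 CPM under control siRNA, so the control replicates were farther apart than the groups.

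In SAM68 knockout HCT116, NORAD siRNA again called none of the 7, and 0.00727% of tested genes passed. Here 1558 genes had an unadjusted p below 0.05 in edgeR, and DESeq2 called 9 genes, none of them among the 7. OIP5-AS1 was the only one of the 7 whose groups did not overlap, as for 43.5% of all genes. It had 70.1 and 66.7 CPM under NORAD siRNA, against 54.9 and 56.5 CPM under control siRNA (log2 0.30 ± 0.10, edgeR unadjusted p = 0.0148 and adjusted p = 0.428). With a correction for GC content the difference was 0.03. MALAT1 had 45.3 and 55.5 CPM under NORAD siRNA, against 33.9 and 90.3 CPM under control siRNA, a 2.66-fold gap between the control replicates that 1.16% of genes exceeded. NEAT1 had 139 CPM in both NORAD siRNA libraries, against 127 and 156 CPM under control siRNA. TUG1, DANCR, PVT1 and H19 had log2 differences between -0.17 and 0.13.

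The effect of NORAD siRNA was then compared between the genotypes. None of the 7 passed in this test of the difference, nor did any of the 13764 genes (0%; edgeR). Without adjustment, 1048 genes had a p below 0.05, none of them among the 7, and DESeq2 called 2 genes, none of them among the 7. H19 had a difference of 0.53 ± 0.40, knockout minus wild type on the log2 scale. OIP5-AS1 had 0.28 ± 0.14 (edgeR unadjusted p = 0.0724, and -0.08 with a GC correction), TUG1 0.25 ± 0.27 and DANCR 0.12 ± 0.16. MALAT1, NEAT1 and PVT1 had -0.16 ± 0.57, -0.11 ± 0.20 and -0.07 ± 0.21. The interval of OIP5-AS1 ran from -0.03 to 0.60, so it spans 0 and differences of up to 0.60.

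The knockout was also set against wild type under each siRNA. Under control siRNA none of the 7 passed, where 0.312% of tested genes (43 of 13764) passed in edgeR and 1269 had an unadjusted p below 0.05. DESeq2 called 114 genes and none of the 7. The edgeR count was 27 without wild-type control replicate 1 and 20 without knockout control replicate 2. NEAT1 and H19 were the members under that unadjusted level. NEAT1 had 127 and 156 CPM in the knockout, against 98.0 and 125 CPM in wild type (log2 0.35 ± 0.14, edgeR adjusted p = 0.495). H19 had 2.72 and 2.25 CPM in the knockout, against 4.52 and 3.46 CPM in wild type (log2 -0.69 ± 0.28, edgeR adjusted p = 0.492). The wild-type control libraries are the same ones that gave H19 its difference under NORAD siRNA, so these values are not independent. Groups did not overlap for 4 of the 7, against 34.6% of all genes. MALAT1 had 33.9 and 90.3 CPM in the knockout, against 26.6 and 52.0 CPM in wild type, and passed only with no filter on low counts (edgeR adjusted p = 0.0106). It had a log2 difference of 0.67 ± 0.40, which was -0.20 with knockout replicate 2 left out.

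Under NORAD siRNA, OIP5-AS1 was the only one of the 7 to pass between knockout and wild type. It had 70.1 and 66.7 CPM in the knockout, against 51.6 and 53.9 CPM in wild type, which is 1.30-fold higher with an interval of 1.11 to 1.51 (log2 0.37 ± 0.10, edgeR adjusted p = 0.0336). In that comparison 18.1% of all genes passed, 2495 of 13764, and 11.6% passed as higher, so 1 of 7 is near the background. The count of 2495 fell to 19 without knockout NORAD siRNA replicate 1, 747 without replicate 2, 19 without wild-type NORAD siRNA replicate 1 and 30 without replicate 2. OIP5-AS1 lost its call in each of these 4 fits, with log2 differences of 0.32 to 0.40 and edgeR adjusted p from 0.0855 to 0.267. It also lost it with no filter on low counts (adjusted p = 0.0517 in edgeR), where MALAT1 passed instead at 0.49 (adjusted p = 0.0215). DESeq2 on all libraries called OIP5-AS1 (DESeq2 adjusted p = 0.0226) as the only one of the 7, among 2938 genes called.

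A GC correction turned the direction of OIP5-AS1, to -0.11 (edgeR adjusted p = 0.552). Across 13594 genes the log2 difference in this comparison had a Spearman rho of -0.73 with GC content, and 317 genes passed after the correction. OIP5-AS1 is the most GC-poor of the 7, and 6.12% of tested genes are lower. Its GC content was taken from the transcript of 8829 bases and not from the 1894 bases counted, so the size of that correction is uncertain for this gene. OIP5-AS1 overlaps the gene OIP5 on the other strand, and whether counting used the strand is not given in the sources used here. OIP5 itself had 29.6 CPM in the knockout and 23.9 CPM in wild type (log2 0.31 ± 0.11, edgeR adjusted p = 0.0854). Reads of the pair could be confused if strand was not used.

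MALAT1 and NEAT1 were higher in both knockout libraries than in both wild-type libraries under NORAD siRNA without passing. MALAT1 had 45.3 and 55.5 CPM in the knockout, against 33.8 and 37.2 CPM in wild type (log2 0.51 ± 0.40). NEAT1 had 139 CPM in both knockout libraries, against 112 and 124 CPM in wild type (log2 0.24 ± 0.14, edgeR adjusted p = 0.242). Groups did not overlap for 3 of the 7, OIP5-AS1 included, and for 68.7% of all genes. TUG1, DANCR, PVT1 and H19 had log2 differences between -0.16 and 0.11.

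**Figure D3:**
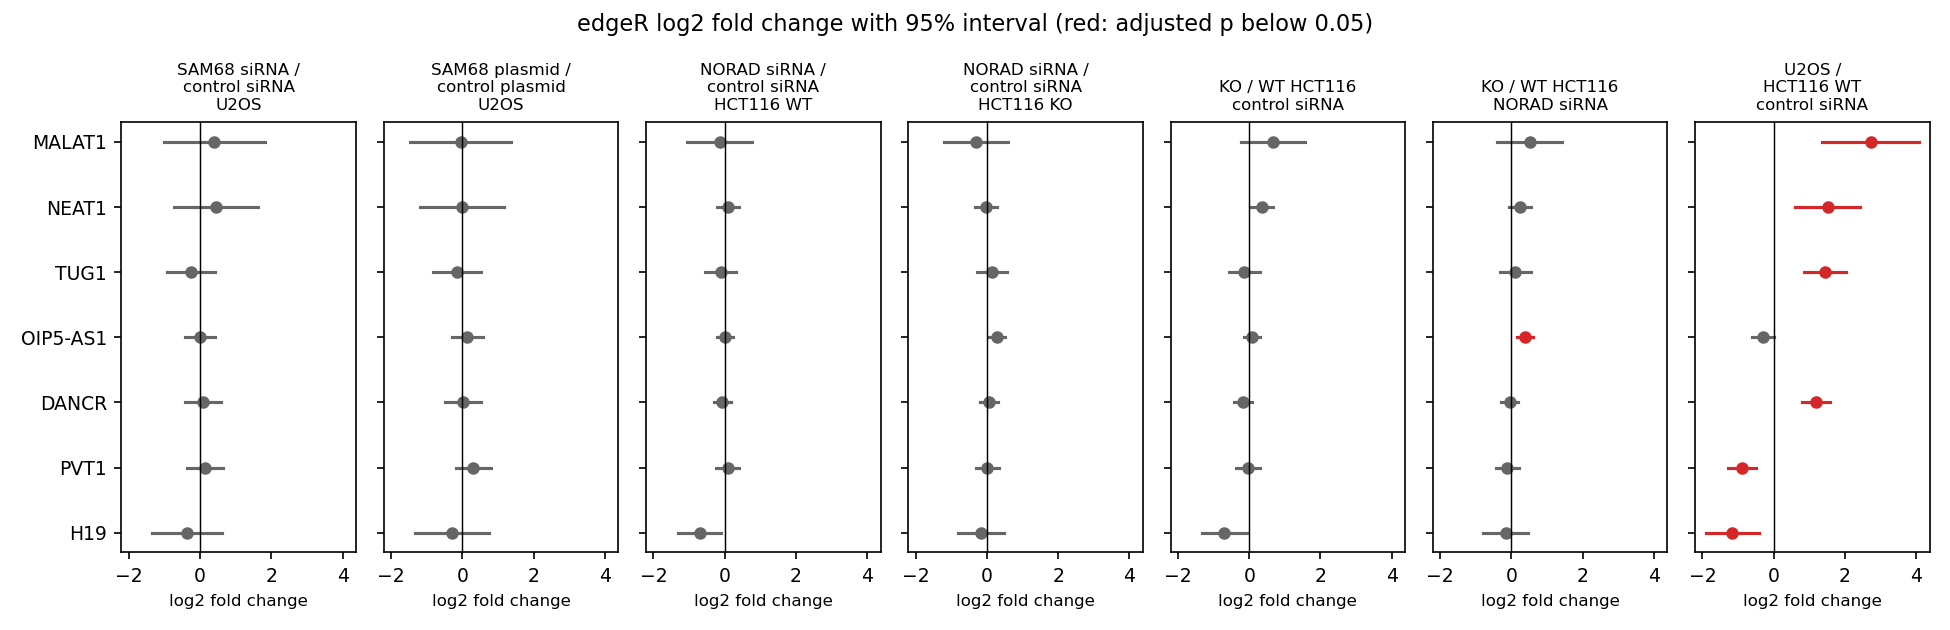
Log2 fold change of each RNA in 7 comparisons, each as the group named first over the group named second, with the 95% interval from edgeR and red where the adjusted p was below 0.05. In the 6 comparisons within a line only OIP5-AS1 is red, at 0.37 in knockout over wild type under NORAD siRNA, while 6 of 7 are red between the lines, from -1.16 for H19 to 2.72 for MALAT1.

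The 7 RNAs differed in how far the replicates of a group lay apart. OIP5-AS1 had gaps of 1.01-fold under U2OS control siRNA to 1.19-fold under the SAM68 plasmid, and each other RNA had a larger widest gap. In single groups others were closer. NEAT1 had a 1.01-fold gap under the SAM68 plasmid, and DANCR 1.07-fold under SAM68 siRNA, against 1.19-fold for OIP5-AS1. MALAT1 was the widest in the SAM68 siRNA group, in knockout HCT116 under control siRNA and in wild-type HCT116 under control siRNA. PVT1 and DANCR stayed within 1.37-fold and 1.56-fold in every group. H19 gaps reached 1.81-fold under the control plasmid, at 13 and 38 expected counts. The precision of a comparison followed these gaps: in U2OS the standard error of the SAM68 siRNA difference was 0.63 for MALAT1 and 0.19 for OIP5-AS1.

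**Figure D4:**
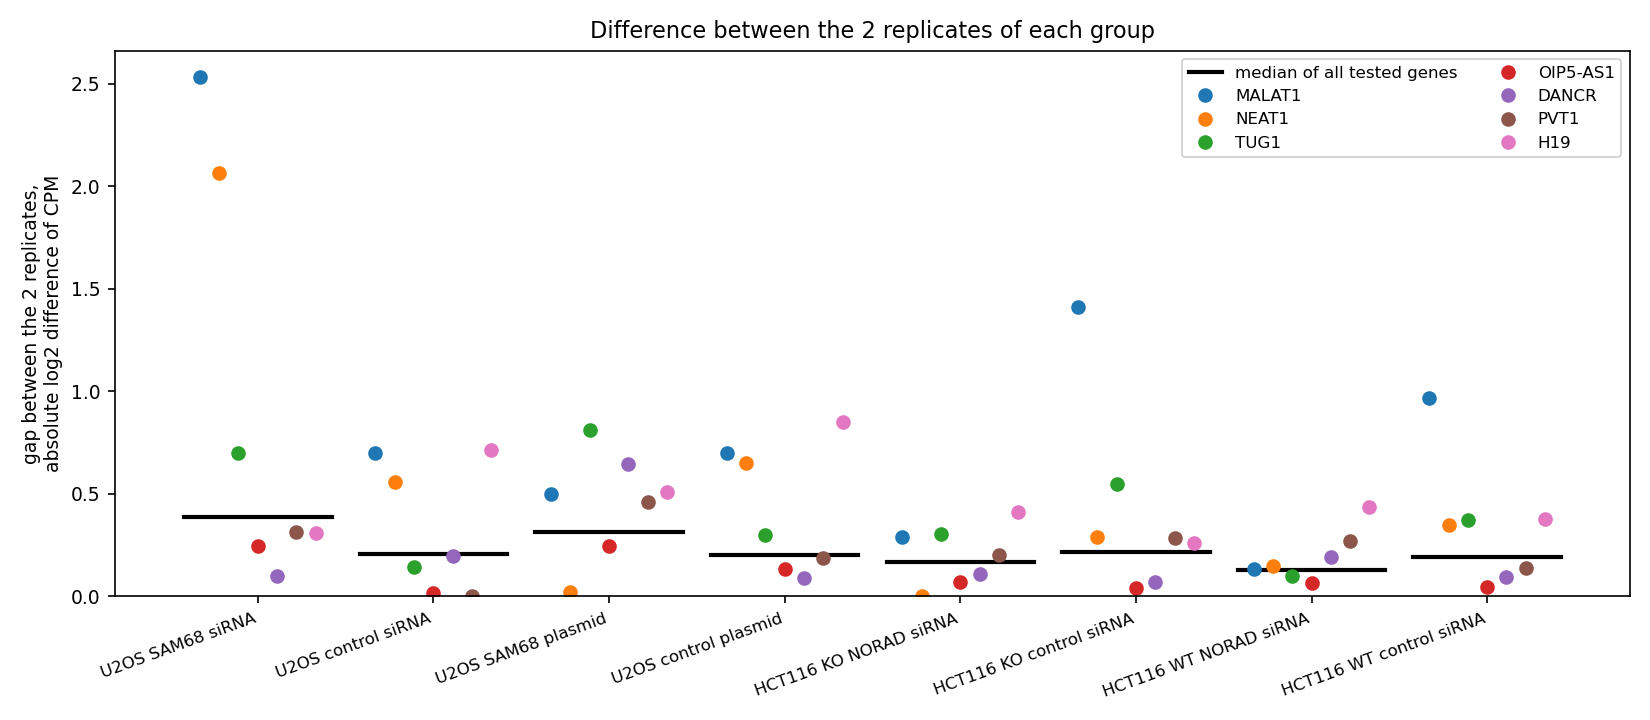
Absolute log2 difference of CPM between the 2 replicates of each group, 1 point per RNA, with the median of all tested genes as a black line. MALAT1 (2.53) and NEAT1 (2.07) stand far above the median of 0.39 in the SAM68 siRNA group, and OIP5-AS1 stays below the median in every group.

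MALAT1 and NEAT1 moved together from library to library. After the mean of each line was subtracted, their log2 CPM had a Pearson r of 0.93 over the 16 libraries and a Spearman rho of 0.89, and r was 0.91 without the 2 libraries farthest from the median of MALAT1. Within lines r was 0.98 in U2OS and 0.88 in HCT116. The libraries include replicates of 8 groups and share depth and base-composition differences, so r is given as a description. NEAT1 ranked 10 among 11453 genes by likeness to MALAT1. TUG1 had an r of 0.76 with MALAT1 (rho 0.84), which was also 0.76 without the 2 farthest libraries. By likeness to MALAT1, TUG1 ranked only 981 among the 11453 genes. DANCR and PVT1 had an r of 0.84 (rho 0.82, and 0.65 without the 2 farthest). By likeness to DANCR, PVT1 ranked 853 among the 11453 genes. Many other genes were thus more like MALAT1 than TUG1 was, and more like DANCR than PVT1 was. TUG1 and DANCR ran opposite in U2OS, with an r of -0.94, but not in HCT116, with -0.02. TUG1 and PVT1 had an r of -0.78 (rho -0.69, and -0.53 without the 2 farthest), and the other pairs were at 0.65 or less in size.

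**Figure D5:**
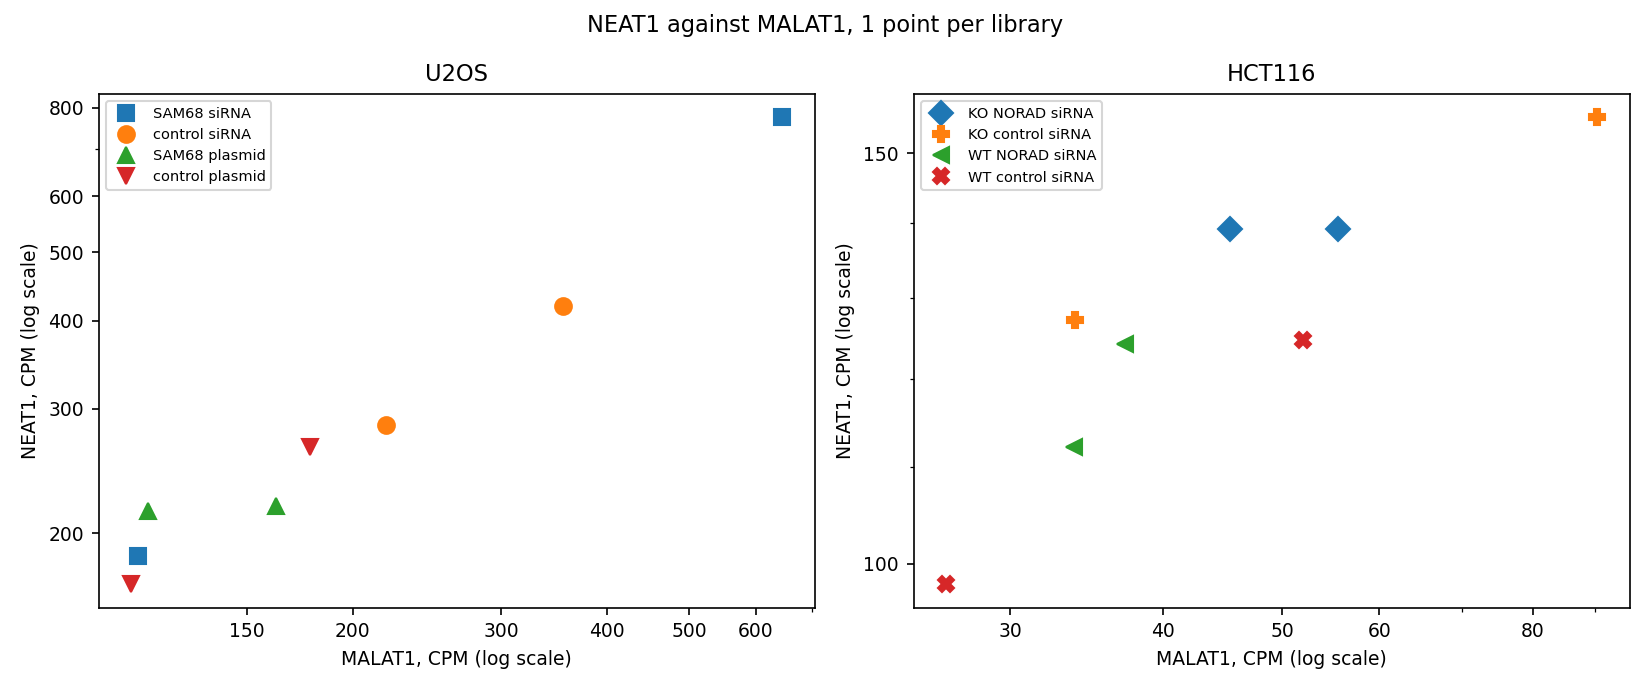
NEAT1 against MALAT1 in CPM, on log axes, 1 point per library, in U2OS (left) and HCT116 (right). SAM68 siRNA replicate 1 lies at the top of the U2OS range (MALAT1 645 CPM, NEAT1 777 CPM) and replicate 2 near the bottom (111 and 186 CPM), with the control siRNA libraries between them.

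For each RNA the 3 genes with the most similar profile over the 16 line-centred libraries were listed by Pearson r, among 11453 genes of at least 5 CPM on average. For MALAT1 they were ZGRF1 (0.94), NAA16 (0.94) and ZNF121 (0.94). For NEAT1 they were LOC100131257 (0.95), ODF2L (0.95) and UGDH-AS1 (0.94), and for TUG1 they were WWC2 (0.99), MED1 (0.98) and NF1 (0.97). For OIP5-AS1 they were ZDHHC13 (0.92), TGIF1 (0.92) and TFDP2 (0.91). DANCR was most like MRPS18B (0.96), QDPR (0.96) and MED10 (0.96), and PVT1 most like MRPS21 (0.96), PSMC3IP (0.96) and ATP5MC1 (0.96). H19 reached only 0.79 with CLIP2 and SLC17A9 and 0.78 with NEURL1B. GC content was 37.7% to 40.4% in the 3 genes like MALAT1 and 60.3% to 67.3% in those like H19, near the 40.3% and 60.1% of these RNAs. It was farther off in others: TGIF1 has 48.5% and TFDP2 44.9%, against 38.4% in OIP5-AS1, ODF2L has 38.1%, against 46.2% in NEAT1, and MED10 has 46.2%, against 53.7% in DANCR.

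Genes tied to these RNAs were read from lists. None of the 32 tested paraspeckle proteins, 23 speckle and MALAT1-processing proteins, 24 nuclear decay factors, 16 reported protein partners or 19 to 20 tested neighbours passed in any of the 5 siRNA and plasmid tests or in knockout against wild type under control siRNA. Their median log2 differences there lay between -0.15 and 0.17, beside -0.01 to 0.01 for all genes. Nor did any of 28 to 29 other long noncoding RNAs or 12 to 16 imprinted genes. In knockout against wild type under NORAD siRNA, 2 of 32 paraspeckle genes were higher and 3 lower, and 7 of 24 nuclear decay factors were higher and 1 lower. Of 28 other long noncoding RNAs, 4 were higher and 2 lower. Of 23 speckle and MALAT1-processing genes 1 was higher and 1 lower, of 16 protein partners 1 was higher and 4 lower, and of 19 neighbours 1 was higher. No imprinted gene of 12 passed. Over all genes in that comparison 18.1% passed and 11.6% passed as higher. TENT4B, a noncanonical poly(A) polymerase of nuclear RNA, had 45.8 CPM in the knockout and 27.6 CPM in wild type (log2 0.73 ± 0.15, edgeR adjusted p = 0.0197). RBM7, of the nuclear exosome targeting complex, had 36.5 CPM in the knockout and 21.7 CPM in wild type (log2 0.75 ± 0.16). These calls come from the comparison whose count of calls fell in every fit without 1 library.

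Between U2OS and HCT116 every one of these lists had calls, where 65.4% of all genes passed and 35.6% passed as higher. Of 23 speckle and MALAT1-processing genes, 1 was higher and 15 lower in U2OS, with a median of -0.61, while MALAT1 itself was higher. Of 32 paraspeckle genes, 5 were higher and 11 lower, with a median of -0.15, while NEAT1 was higher. Of 24 nuclear decay factors 2 were higher and 10 lower, of 16 protein partners 2 were higher and 9 lower, and of 20 neighbours 3 were higher and 6 lower. Of 33 other long noncoding RNAs, 16 were higher and 11 lower in U2OS. Under control siRNA, MIAT had 52.7 CPM in U2OS and 0.437 CPM in HCT116, and UCA1 had 2.49 CPM in U2OS and 82.5 CPM in HCT116. The MIAT level also differed within U2OS, by what was transfected. In the U2OS fit it was 56.5 CPM under control siRNA and 5.51 CPM under control plasmid (log2 3.37 ± 0.32, edgeR adjusted p = 0.00943). Of 17 imprinted genes, 11 were higher and 3 lower, with a median of 1.12, while H19 was lower. The median over all tested genes was 0.10.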

How the data were processed

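Per the file headers, the authors deposited 1 RSEM gene table per library, with expected counts, TPM, FPKM and transcript lengths. The submitters' processing notes name STAR, RSEM and hg19. For versions and strand setting, the sources used here give nothing. The library kit keeps strand, per the labels' protocols. TPM, as deposited by the authors, served for levels between genes, and FPKM, as deposited, for an alternative.

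Expected counts deposited by the authors were rounded and fitted per cell line (8 libraries) with edgeR 4.0.16 (filterByExpr, TMM, quasi-likelihood test; limma 3.58.1, R 4.3.3), and over all 16 libraries between lines. All 7 RNAs passed the filter in each fit. A call is a p below 0.05 after Benjamini-Hochberg adjustment over all genes tested, 15658 in U2OS, 13764 in HCT116 and 16444 in both. An exact permutation of 2 against 2 libraries cannot go below a two-sided p of 0.333. CPM uses TMM library sizes. Errors are SE for log2 differences and SD for means. The scripts were tested on simulated data.

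Alternatives were RLE factors, no filter, a replicate block, GC content (lowess, span 0.3) and effective length offsets, DESeq2 1.42.0, FPKM, only the compared groups and leaving out each library. The members and lists were chosen with earlier results of these data known. The comparison of the U2OS controls and the level order without 1 library were chosen after seeing the data. Named genes were the 7, the targeted genes, neighbours in RefSeq, the 3 most similar profiles and, from the lists, genes with calls. Transcript sequences came from GENCODE release 29, another build than the files', so no coordinates of genes are printed.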

Additional observations from a re-analysis of the deposited data

How the results depend on the processing

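Between U2OS and HCT116, all alternatives on all libraries called the same number of the 7, and leaving out 1 library left 4 to 6 called. Within a line, counts of genes called moved more. With no filter on low counts, calls were 27 for SAM68 siRNA, 15 for the SAM68 plasmid, 33 and 61 for NORAD siRNA in wild type and knockout, and 30 for the difference of these effects. That filter choice gave 272 (1 of the 7, MALAT1) for the knockout under control siRNA, 3965 under NORAD siRNA and 1609 (2 of the 7) for the U2OS controls. DESeq2 called 7, 4, 5, 9, 2 and 114 in the first 6 of these comparisons and 1020 for the U2OS controls. The GC correction called 169 and 317 for the knockout under control and NORAD siRNA (0 of the 7 in the second), and 1669 for the U2OS controls. Leaving out 1 library gave 0 to 5, 0 to 4, 1 to 2, 0 to 4, 0 to 1, 20 to 41, 19 to 747 (0 of the 7) and 1 to 54 calls in the same order of comparisons. The cause was not tested, beyond the fewer samples or other genes tested.

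The replicate numbers are shared across groups, but whether same-numbered libraries belong together is not stated, so the main fits used no pairing. Deviations of same-numbered libraries correlated at -0.08 to 0.38. With a replicate block the calls were 0, 0, 3, 7, 2, 254 and 5539 from SAM68 siRNA to the knockout under NORAD siRNA. The block gave log2 differences of 0.0003 for OIP5-AS1 under SAM68 siRNA, and 0.12, 0.089 and -0.0031 for MALAT1, NEAT1 and DANCR under the SAM68 plasmid.

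Small differences changed sign, none of them called except OIP5-AS1 in the knockout under NORAD siRNA. OIP5-AS1 under SAM68 siRNA was 0.043 with RLE and with DESeq2, 0.30 with the GC correction and 0.0035 with the length offset. Under the SAM68 plasmid, NEAT1 was 0.0016 with RLE, 0.0011 with DESeq2 and 0.025 with GC, MALAT1 was 0.0064 with GC and DANCR was -0.0084 with GC. OIP5-AS1 under NORAD siRNA in wild type was -0.0073 with RLE and DESeq2 and -0.0060 with the length offset. With GC, TUG1 was -0.034 and H19 0.013 under NORAD siRNA in the knockout, and the difference of effects was -0.077 for OIP5-AS1 and 0.0018 for PVT1. With GC, the knockout difference was -0.034 for OIP5-AS1 under control siRNA, and under NORAD siRNA it was -0.21 for TUG1, -0.11 for OIP5-AS1, 0.091 for DANCR and 0.16 for H19.

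Leaving out 1 library gave these log2 ranges. SAM68 siRNA spanned -1.28 to 1.17 for MALAT1, -0.84 to 1.14 for NEAT1, -0.56 to 0.050 for TUG1, -0.13 to 0.20 for OIP5-AS1 and -0.63 to 0.12 for H19. The plasmid spanned -0.36 to 0.34 for MALAT1, -0.29 to 0.35 for NEAT1, -0.61 to 0.21 for TUG1, -0.34 to 0.30 for DANCR and -0.64 to 0.28 for H19. NORAD siRNA in wild type spanned -0.55 to 0.42 for MALAT1, -0.077 to 0.27 for NEAT1, -0.29 to 0.085 for TUG1, -0.024 to 0.042 for OIP5-AS1, -0.16 to 0.028 for DANCR and -0.057 to 0.21 for PVT1. In the knockout it spanned -0.84 to 0.56 for MALAT1, -0.16 to 0.12 for NEAT1, -0.11 to 0.42 for TUG1, -0.0099 to 0.10 for DANCR, -0.14 to 0.16 for PVT1 and -0.39 to 0.039 for H19. The difference of effects spanned -0.73 to 0.70 for MALAT1, -0.31 to 0.055 for NEAT1 and -0.23 to 0.078 for PVT1. The knockout under control siRNA spanned -0.20 to 1.23 for MALAT1, -0.43 to 0.09 for TUG1 and -0.21 to 0.10 for PVT1. Under NORAD siRNA it spanned -0.059 to 0.23 for TUG1, -0.16 to 0.052 for DANCR, -0.26 to 0.030 for PVT1 and -0.39 to 0.10 for H19. Where a group kept 1 library, that library was assumed to vary like the other groups.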
